A study of Mus musculus with 11 samples.

Results

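The levels of 10 common reference genes were measured in pancreas and epididymal fat of control mice and of OA-AP mice, a model of obesity-related alcohol-induced acute pancreatitis. The 10 genes, Actb, Gapdh, Hprt, B2m, Tbp, Ppia, Ywhaz, Gusb, Sdha and Rplp0, were selected by name from the 55350 genes listed in either tissue's count table, and the rule uses no measured value. All 10 were listed in both tables and all 10 passed the filter on low counts in both. In the pancreas Gapdh, at 6 counts in both control libraries, passed only through its OA-AP libraries, so its change there is a description. A reference gene, or housekeeping gene, encodes something that nearly every cell needs, such as cytoskeleton, glycolysis, ribosomes or transcription. In RT-qPCR its RNA stands for the amount of input, and a target gene is reported as a ratio to it. That ratio carries any change of the reference gene itself.

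Bulk RNA-seq covered 5 pancreas samples, 2 control and 3 OA-AP, and 6 adipose samples, 3 of each group. All were male wild type C57BL/6 mice, 16 weeks old. The control group was fed 10 kcal% fat for 12 weeks before saline, and the OA-AP group 60 kcal% fat for the same 12 weeks before ethanol at 2 g/kg. Each mouse had 2 intraperitoneal injections 1 h apart, with tissue collection at 12 h. No group here had the diet or the ethanol alone, so the parts of diet, ethanol and pancreatitis cannot be told apart. In bulk tissue, fewer cells of a type and less RNA per cell cannot be told apart either.

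The pancreas libraries held 14188832 to 17238919 counts on genes and the adipose libraries 20825177 to 27928097. A list of 48 acinar marker genes, mostly digestive enzymes, took 81.5% to 82.9% of the control pancreas counts and 67.5% to 70.2% of the OA-AP pancreas counts, and all 48 had a count in every pancreas library. A total set mainly by these genes leaves a different remainder in each group, so CPM, a count scaled to a common library size, is given here after TMM scaling by edgeR. The TMM factors spanned 0.698 to 0.793 in control pancreas, 1.11 to 1.32 in OA-AP pancreas and 0.927 to 1.06 in adipose tissue. The 10 adipocyte markers, all with counts in every adipose library, took 3.52% to 4.83% of the adipose counts. Adipose control replicate 2 stood apart, with 1.16% of its counts on the acinar markers against at most 0.0271% in the other 5 adipose libraries, and 0.00527% on lymphocyte markers against at most 0.00173%. For B2m in adipose tissue, the fold change, the tissue by condition term, the scaling and the stability values are also given without it.

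The coding sequence of several of these genes recurs almost letter for letter in processed pseudogenes, and this bears on how their reads can be counted. The first 90 coding bases of Gapdh, the glycolytic enzyme glyceraldehyde-3-phosphate dehydrogenase (ENSMUSG00000057666, chromosome 6 of GRCm38, 125161715 to 125166467, minus strand), and of Ppia, the peptidyl-prolyl isomerase cyclophilin A (ENSMUSG00000071866, chromosome 11, 6415443 to 6419817, plus strand), are shown with the same stretch of an annotated pseudogene each. Gm7336 lies on chromosome 7 from 51746647 to 51747878 and Gm10123 on chromosome 9 from 96895658 to 96896147. Actb is shown with its protein-coding paralog Actg1, cytoplasmic gamma-actin, as a pair that reads can tell apart. Bases that differ from the first gene of a pair are in capitals, and all are 5′ to 3′ from the start codon as given in GENCODE M21.
Gapdh: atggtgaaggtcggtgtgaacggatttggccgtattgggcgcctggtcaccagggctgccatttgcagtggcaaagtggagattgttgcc
Gm7336: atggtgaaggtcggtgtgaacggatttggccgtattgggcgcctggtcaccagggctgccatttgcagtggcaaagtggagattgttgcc
Ppia: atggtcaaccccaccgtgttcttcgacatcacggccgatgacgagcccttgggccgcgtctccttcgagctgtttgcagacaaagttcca
Gm10123: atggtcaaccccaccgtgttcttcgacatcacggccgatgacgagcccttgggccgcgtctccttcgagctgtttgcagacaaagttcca
Actb: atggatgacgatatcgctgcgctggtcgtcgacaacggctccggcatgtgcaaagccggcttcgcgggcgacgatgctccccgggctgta
Actg1: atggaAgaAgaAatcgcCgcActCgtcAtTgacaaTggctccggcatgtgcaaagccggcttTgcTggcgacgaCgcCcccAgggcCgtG
No base differed within the Gapdh and Ppia pairs, and 16 of the 90 differed between Actb and Actg1.

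The whole coding sequences gave the same picture. Of the 850 windows of 150 bases, the read length, in the Gapdh coding sequence, 850 were found unchanged in a transcript of another gene, spread over 49 genes. Ppia shared 343 of 343 windows, with 7 genes. Ywhaz shared 440 of 586, with the pseudogene Gm4202, and Rplp0 shared 86 of 802, while Actb, Hprt, B2m, Tbp, Gusb and Sdha shared 0. Untranslated regions and read pairs were outside this search. In total 252 annotated pseudogenes matched the Gapdh coding sequence over at least 50% of its length at 85% identity or more, and 42 matched that of Ppia.

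Counts of Gapdh in the pancreas were close to 0. Both control libraries had 6, and the OA-AP libraries had 20, 12 and 51, against 17649 to 24266 in the 6 adipose libraries. The pancreas counts summed to 95 for Gapdh and 337 for its annotated pseudogenes, so Gapdh held 22.0% of the joint count. In adipose tissue the sums were 127227 and 1799, and Gapdh held 98.6%. Of the pancreas pseudogene counts, 160 were on 3000002C10Rik, at 94.4% identity, and 26 on Gm7336, at 100%. The joint pancreas count was thus also far below that of adipose tissue. Other glycolytic enzymes were well counted in the same pancreas libraries. Aldoa (aldolase A), for example, had 93.3 ± 9.82 CPM (SD, n = 2) in control pancreas, where Gapdh had 0.557 ± 0.059. For Ppia, 65.4% of the joint count was on Ppia itself in pancreas tissue against 92.6% in adipose tissue. The pancreas split differed between libraries, with 1131 counts on Ppia and 199 on its pseudogenes in control replicate 1, 627 and 390 in control replicate 2, and 831 to 882 and 540 to 593 in the OA-AP libraries. How reads that fit several genes were treated is not given in the sources used here, and its part in these values was not tested.

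In the pancreas 5 of the 10 genes were DEGs, meaning an adjusted p-value below 0.05 together with a change of 1.5-fold or more, where 29.8% of all 12884 tested genes were. Actb and Ywhaz were upregulated, as were 16.2% of all tested genes, and B2m, Gusb and Ppia were downregulated, as were 13.5%. The groups did not overlap in 8 of the 10 genes, against 62.3% of all tested genes. For 1 of the 10, Hprt, the 95% interval of the change lay inside 1.5-fold in both directions, which held for 9.52% of all tested genes.

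Actb encodes cytoplasmic beta-actin, the monomer of the actin cytoskeleton (ENSMUSG00000029580, chromosome 5, 142903115 to 142906754, minus strand). Its control values were 52.1 and 46.8 CPM and its OA-AP values 282, 241 and 378 CPM. Every OA-AP library was thus far above both controls, with replicate 3 the highest. The log2 fold change was 2.60 (SE 0.22, adjusted p = 0.000225), which made Actb the most changed of the 10. Ywhaz, which encodes 14-3-3 zeta, an adaptor that binds phosphorylated proteins (ENSMUSG00000022285, chromosome 15, 36770770 to 36796929, minus strand), rose from 24.4 and 23.6 CPM to 47.0, 43.5 and 70.3 CPM. The control libraries were nearly equal and the OA-AP libraries were all higher, again with replicate 3 at the top. Its log2 fold change was 1.16 (SE 0.22, adjusted p = 0.00634), but the call was lost without control replicate 1 (adjusted p = 0.0656) or without control replicate 2 (adjusted p = 0.0771), each of which left a single control.

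Beside these increases, 10 neutrophil markers took 0.000102% and 0.000139% of the control pancreas counts and 0.000444% to 0.0115% of the OA-AP counts, with Ly6g, Camp and Retnlg at 0 in both controls. Of the 7 that could be tested edgeR called 0 and 1 had an unadjusted p under 0.05, while DESeq2 called 5 upregulated, and their median log2 fold change was 5.19. At these control levels the 7 could pass the low-count filter almost only through the OA-AP libraries, so these values are no support for an increase. The 0.0115% was that of OA-AP replicate 3, against 0.00193% and 0.000444% in OA-AP replicates 1 and 2. The 10 macrophage markers took 0.00218% and 0.00449% of control counts and 0.00677% to 0.0123% of OA-AP counts, with 0 of 10 at 0 in either group, 1 downregulated and 0 upregulated. Of these 10, 4 had an unadjusted p under 0.05 in edgeR, and DESeq2 called 1 in each direction. Of the 47 acinar markers tested, 24 were downregulated and 7 upregulated. Adipocyte markers took 0.00382% and 0.00448% of control counts and 0.0168% to 0.0302% of OA-AP counts, with Plin1, Lep, Retn and Cidec at 0 in both controls, Retn at 0 in all OA-AP libraries and 2 of 4 tested upregulated. The 5 ductal markers took 0.00277% and 0.00369% of control counts and 0.00927% to 0.0128% of OA-AP counts, with 1 of 4 tested upregulated. Of the 6 endothelial markers, at 0.00490% to 0.00547% and 0.00616% to 0.00759%, 2 were downregulated. The part of these cell types in the changes of the reference genes was not tested.

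**Figure D1:**
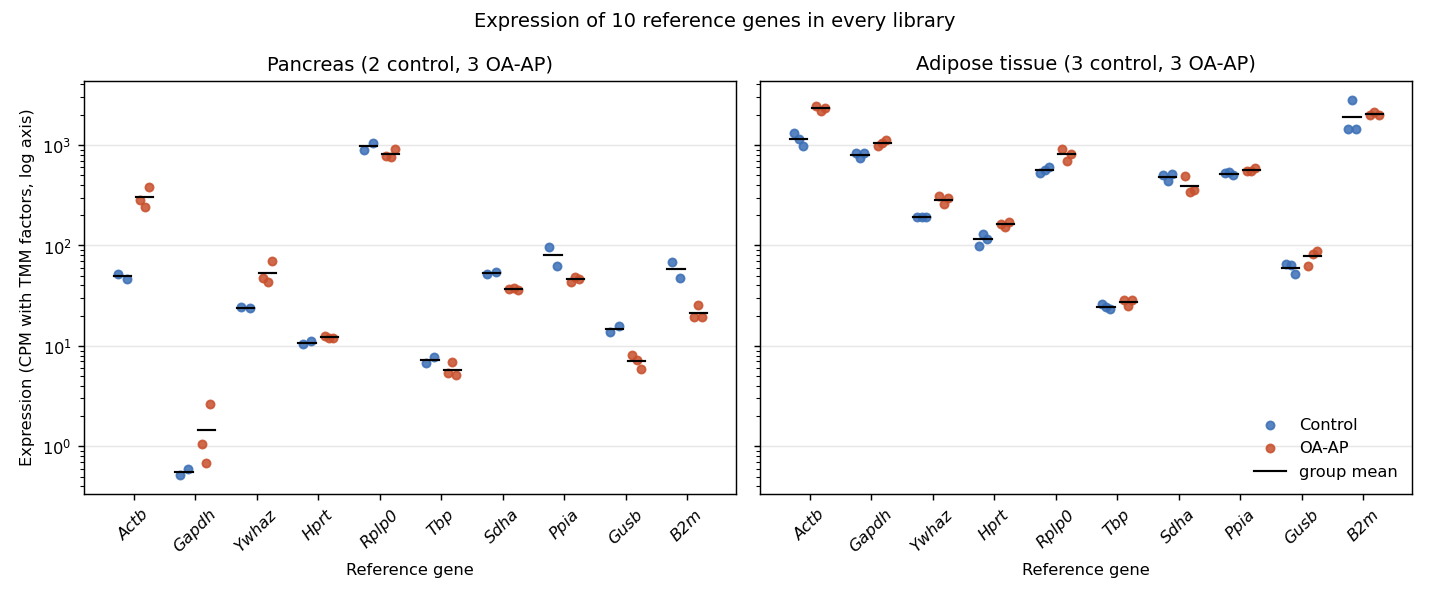
Expression of the 10 reference genes in CPM with TMM factors (vertical log axis), 1 point per library and a black bar at each group mean, for pancreas on the left and adipose tissue on the right. In the pancreas the OA-AP points of Actb and Ywhaz sit above both controls and those of B2m, Gusb and Ppia below, and Gapdh lies between 0.515 and 2.67 CPM in the pancreas but between 748 and 1128 CPM in adipose tissue.

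B2m encodes beta-2-microglobulin, the invariant light chain of MHC class I molecules (ENSMUSG00000060802, chromosome 2, 122147686 to 122153083, plus strand). It fell from 68.6 and 47.2 CPM to 19.2, 25.6 and 19.5 CPM. The controls differed from each other by more than the OA-AP libraries did, yet the lower control was still above every OA-AP library, and the log2 fold change was −1.44 (SE 0.20, adjusted p = 0.00158). Gusb, the lysosomal enzyme beta-glucuronidase (ENSMUSG00000025534, chromosome 5, 129989011 to 130003049, minus strand), fell from 13.9 and 15.7 CPM to 8.09, 7.21 and 5.86 CPM. The groups did not overlap, and the log2 fold change was −1.07 (SE 0.19, adjusted p = 0.00442). The Gusb call was lost without control replicate 2 (adjusted p = 0.0595).

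Ppia went from 97.1 and 62.5 CPM in the control pancreas to 43.6, 48.1 and 46.1 CPM in the OA-AP pancreas, a log2 fold change of −0.80 (SE 0.19, adjusted p = 0.0135). Its OA-AP libraries lay close together and its controls far apart. Ppia lost the call without control replicate 1, with a log2 fold change of −0.44 (adjusted p = 0.146), and without OA-AP replicate 1 (adjusted p = 0.0643). With the counts of its annotated pseudogenes added, an alternative chosen after seeing the data, the log2 fold change was −0.50 (adjusted p = 0.0196), short of 1.5-fold.

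Sdha, the flavoprotein subunit of succinate dehydrogenase (ENSMUSG00000021577, chromosome 13, 74322254 to 74350280, minus strand), had 51.6 and 53.8 CPM in control and 37.2, 37.6 and 35.9 CPM in OA-AP pancreas. Both groups were tight and did not overlap, and the log2 fold change of −0.51 (SE 0.12, adjusted p = 0.0136) passed the p-value but not the fold. Hprt, the purine salvage enzyme hypoxanthine phosphoribosyltransferase (ENSMUSG00000025630, chromosome X, 52988137 to 53021659, plus strand), had 10.5 and 11.2 CPM in control and 12.5, 12.1 and 11.9 CPM in OA-AP pancreas. Its groups lay close together but did not overlap, with a log2 fold change of 0.17 (95% interval −0.18 to 0.52, adjusted p = 0.414).

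Tbp, the TATA-binding protein of the general transcription machinery (ENSMUSG00000014767, chromosome 17, 15499888 to 15528379, plus strand), had 6.69 and 7.68 CPM in control and 5.36, 6.98 and 5.13 CPM in OA-AP pancreas, from 77 to 122 counts a library. The groups overlapped, and the 95% interval of the log2 fold change, −0.82 to 0.21, reached past 1.5-fold downward. The gene span of Tbp shares 8094 bases with that of Pdcd2 on the other strand, and how much of this is exon was not measured. Pdcd2 was at 0 in 11 of 11 libraries, and reads from any shared exon cannot be told apart without strand. Rplp0, a ribosomal stalk protein (ENSMUSG00000067274, chromosome 5, 115559467 to 115563727, plus strand), had 901 and 1037 CPM in control and 770, 765 and 909 CPM in OA-AP pancreas, also with overlap (log2 fold change −0.25, 95% interval −0.60 to 0.10, adjusted p = 0.232). Gapdh did not pass the test at its few counts (log2 fold change 1.40, 95% interval −0.22 to 3.02, adjusted p = 0.161). Its log2 fold change was 0.60 without OA-AP replicate 3 (adjusted p = 0.409), and 0.14 with the counts of its annotated pseudogenes added (adjusted p = 0.667).

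**Figure D2:**
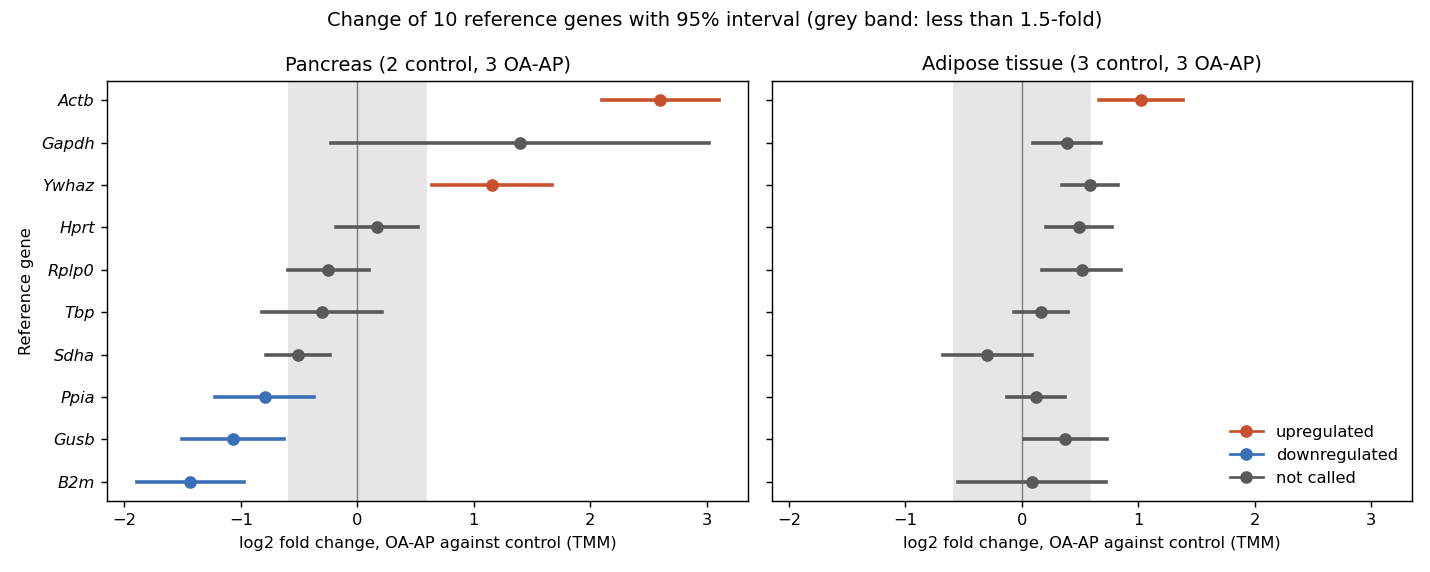
Log2 fold change of each reference gene in OA-AP against control with TMM factors (points) and its 95% interval from edgeR's quasi-likelihood fit (bars), coloured by call, with the range under 1.5-fold in grey. In the pancreas the points run from −1.44 for B2m to 2.60 for Actb, and in adipose tissue from −0.30 for Sdha to 1.02 for Actb.

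In adipose tissue 1 of the 10 genes, Actb, was a DEG, where 25.1% of all 15839 tested genes were. Actb stood at 1323, 1146 and 987 CPM in control and at 2469, 2202 and 2359 CPM in OA-AP tissue, without overlap. Its log2 fold change was 1.02 (SE 0.16, adjusted p = 0.00321). In 6 of the 10 genes the groups did not overlap, against 52.4% of all tested genes, and 5 of the 10 had an adjusted p-value under 0.05, against 36.8%. For 2 of the 10, Tbp and Ppia, the 95% interval lay inside 1.5-fold in both directions, which held for 29.8% of all tested genes.

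Ywhaz was just under the fold in adipose tissue. Its controls, at 192, 190.2 and 190.5 CPM, lay closest together of the 10 genes, and all 3 OA-AP values, 307, 258 and 293 CPM, were higher. Its log2 fold change of 0.58 (SE 0.10, adjusted p = 0.00573) was a fold of 1.499, and DESeq2 called it (log2 fold change 0.59, adjusted p = 9.17e-07). The 3 other genes with an adjusted p-value under 0.05 and a smaller increase were Rplp0, which went from 526, 566 and 605 CPM to 915, 689 and 817 CPM (log2 fold change 0.51, adjusted p = 0.0286), Hprt, which went from 99.3, 130 and 117 CPM to 164, 151 and 171 CPM (0.49, adjusted p = 0.019), and Gapdh, which went from 830, 748 and 826 CPM to 978, 1039 and 1128 CPM (0.39, adjusted p = 0.0437). Every OA-AP library of these 3 genes was above every control.

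The other 5 did not pass the test in adipose tissue. Gusb had 60.1 ± 7.05 CPM in control and 77.9 ± 13.5 CPM in OA-AP tissue (SD, n = 3 each), and the groups overlapped (log2 fold change 0.37, adjusted p = 0.09). Sdha had 442 to 513 CPM in control and 339 to 486 CPM in OA-AP tissue (−0.30, adjusted p = 0.192). Tbp, at 23.3 to 26.2 and 25.1 to 28.9 CPM, and Ppia, at 499.9 to 538 and 554 to 590 CPM, moved by 0.16 and 0.12 on the log2 scale. B2m had 1450 and 1452 CPM in control replicates 1 and 3 but 2815 CPM in control replicate 2, the library with acinar and lymphocyte marker counts, and 1974 to 2116 CPM in the OA-AP libraries. Its log2 fold change was 0.09 (95% interval −0.55 to 0.73) with that library and 0.49 without it, and neither passed the test. Without it Hprt (0.59, adjusted p = 0.0206) and Ywhaz (0.59, adjusted p = 0.0209) were DEGs beside Actb. The part of acinar or lymphocyte RNA in the high B2m value was not tested.

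Beside the adipose changes, the neutrophil markers took 0.000755% to 0.00137% of the control counts and 0.0169% to 0.0187% of the OA-AP counts, and 6 of the 6 tested were upregulated. The macrophage markers took 0.0827% to 0.113% and 0.0902% to 0.128%, with 5 of 10 upregulated and 1 downregulated, and the adipocyte markers 4.43% to 4.83% and 3.52% to 4.17%, with 1 of 10 upregulated and 2 downregulated. Of 7 fibroblast markers 5 were downregulated, and of 9 tested lymphocyte markers 6 were. In these 4 lists and the neutrophil list, 0 markers were at 0 throughout a group. The part of these cell types in the changes of the reference genes was not tested.

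Whether a reference gene changed differently in the 2 tissues was tested with the tissue by condition term in a fit of all 11 libraries. Of the 17046 genes tested 20.6% differed, and of the 10 reference genes 4 did. Actb rose by 1.59 more on the log2 scale in the pancreas than in adipose tissue (SE 0.28, adjusted p = 0.00226). The pancreas minus adipose difference was −1.52 for B2m (SE 0.39, adjusted p = 0.016), −1.43 for Gusb (SE 0.25, adjusted p = 0.00185) and −0.91 for Ppia (SE 0.22, adjusted p = 0.0124). These 3 fell in the pancreas and did not pass the test in adipose tissue. With library totals in place of TMM their differences shrank to −0.68, −0.57 and −0.08 and none of the 3 passed (adjusted p = 0.233, 0.13 and 0.847). Gapdh (1.84, adjusted p = 0.0207), Ywhaz (1.41, adjusted p = 0.000335) and Sdha (0.65, adjusted p = 0.0378) were called instead, and Actb stayed called. Without pancreas control replicate 1, which left a single pancreas control, B2m (−1.21) and Ppia (−0.55) did not keep the call. With the replicate number as a block 12.6% of all tested genes were called, Actb and Gusb among them, while B2m (−1.42, adjusted p = 0.0623) and Ppia (−0.85, adjusted p = 0.0603) were not. Without adipose control replicate 2 the difference of B2m was −1.86 (adjusted p = 0.00124).

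The tissues also differed at the start. Between control pancreas and control adipose tissue 8 of the 10 genes were DEGs, where 55.5% of all tested genes were. Rplp0 was higher in the pancreas by 2.75 on the log2 scale (SE 0.20), and 7 genes were lower, from −0.73 for Ppia to −3.06 for B2m and −8.52 for the sparsely counted Gapdh. Tbp (0.20, adjusted p = 0.315) and Gusb (−0.05, adjusted p = 0.821) did not pass the test. The tables were made apart and list partly different genes, so such levels also carry any difference in counting.

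Per kilobase of the gene length that the authors list for the pancreas, the order of the 10 genes in control pancreas ran from Rplp0 at 584 ± 58.0 CPM per kilobase (SD, n = 2) through B2m at 67.3 ± 17.7, Ppia at 22.7 ± 6.96 and Actb at 18.4 ± 1.41 down to Tbp at 0.529 ± 0.051 and Gapdh at 0.135 ± 0.014. Ppia and Actb overlapped in this order, and the other neighbours did not. In the OA-AP pancreas Actb took the second place at 112 ± 26.4 (SD, n = 3), above B2m at 24.9 ± 4.23. In adipose tissue B2m, Actb and Rplp0 led in both groups, with 2216 ± 915, 430 ± 62.8 and 341 ± 23.7 CPM per kilobase in control (SD, n = 3), and Tbp was last. The listed length of Tbp, 13576 bases, is far above that of the other 9, which lowers its value on this scale.

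The scaling of the libraries moved all 10 genes together. With library totals alone, the median change over the pancreas genes lay 0.71 higher on the log2 scale than with TMM, and 92.0% of 6349 DEGs were upregulated against 54.5% of 3834. Of the 10 genes 5 were again DEGs, where 49.3% of all tested genes were, but not the same 5. Actb, Ywhaz, Gapdh (log2 fold change 2.06, adjusted p = 0.0235) and Hprt (0.89, adjusted p = 0.00426) were upregulated and B2m was downregulated, while Ppia (−0.11) and Gusb (−0.34) lost the call. Gapdh had passed the low-count filter only through its OA-AP libraries, so its call is no support for an increase. The values of Tbp, Sdha and Rplp0 turned from negative to positive (0.41, 0.20 and 0.46), without a call.

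Among the scalings that do not rest on the total alone, the pancreas values lay close together. DESeq2's size factors, the upper quartile and TMM factors computed without the acinar genes called 29.5%, 29.9% and 29.5% of all tested pancreas genes and put the log2 fold change of Actb between 2.45 and the TMM value of 2.60, and the upper quartile gave the lowest value for each of the 10 genes in the pancreas. With the upper quartile Sdha also became a DEG in the pancreas (log2 fold change −0.65, adjusted p = 0.00453), so that 6 of the 10 genes were called. Under all 5 scalings, library totals included, Actb and Ywhaz were upregulated in the pancreas and B2m was downregulated. In adipose tissue Actb was upregulated under all 5, from 0.87 with library totals to 1.03 with DESeq2's size factors, under which 26.8% and 25.1% of all tested genes were called, and 26% with the upper quartile. The signs of B2m and Ppia there turned with library totals, to −0.06 and −0.03, and B2m also with the upper quartile, to −0.03.

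**Figure D3:**
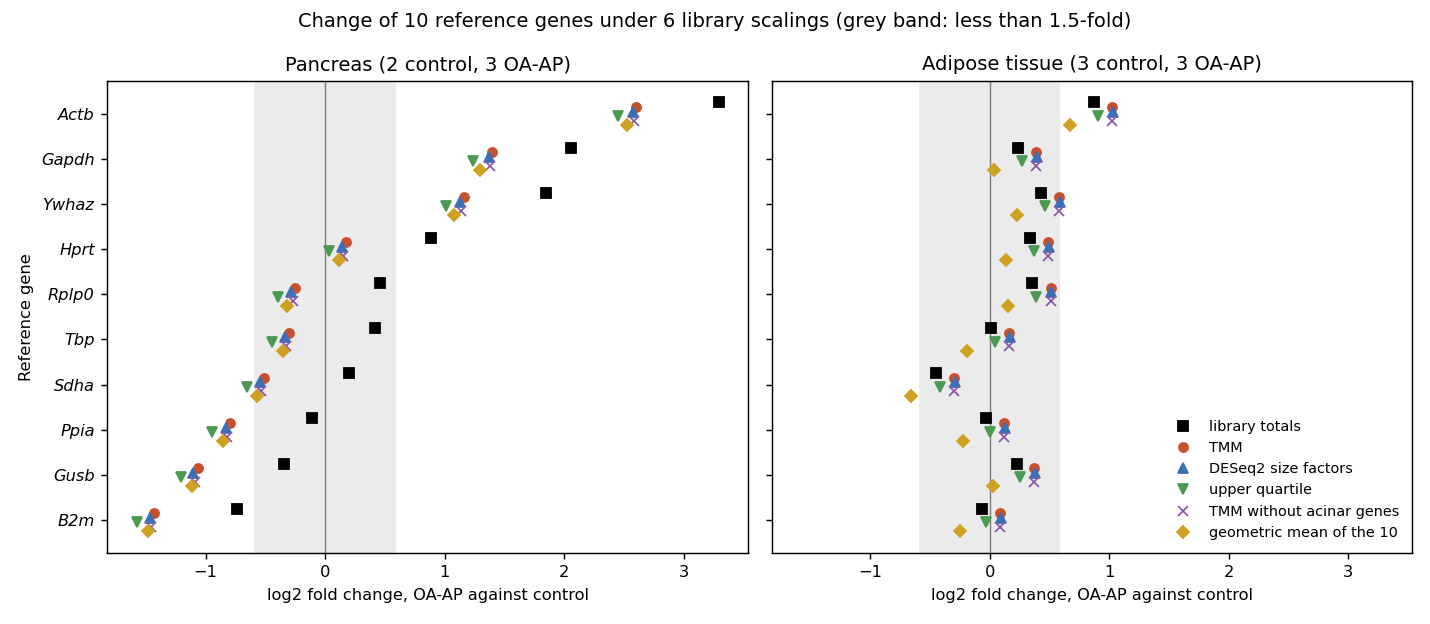
Log2 fold change of each reference gene in OA-AP against control under 6 ways to scale the libraries (symbols), with the range under 1.5-fold in grey, for pancreas and adipose tissue. In the pancreas the library totals (black squares) lie to the right of the other 5 for every gene, with Hprt at 0.89 against 0.17 with TMM, and in adipose tissue the geometric mean of the 10 genes (diamonds) lies furthest left.

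Each gene was then used as the loading control itself, by scaling the libraries to equal counts of that gene and refitting all genes. Such a scaling takes the reference gene's own change off every other gene. The medians in both tissues thus largely follow from the changes given above and are not a further test of them. Scaled by Actb, 11889 of 12883 pancreas genes were downregulated and 119 upregulated, and the median log2 fold change was −2.51. Scaled by B2m, 9158 were upregulated and 187 downregulated, with a median of 1.45. The same libraries thus moved from nearly all genes down to most genes up with the choice of reference gene. Ywhaz gave a median of −1.06 with 6954 downregulated, Gusb 1.12 with 7890 upregulated, Ppia 0.78 with 5197 upregulated and Sdha 0.55 with 4776 upregulated. Rplp0 and Tbp gave medians of 0.29 and 0.36 with 3117 and 3126 upregulated against 1002 and 996 downregulated. Hprt gave −0.13, with 1535 upregulated and 2418 downregulated, the median nearest to 0 of the 10. Gapdh gave −0.93, but with 58 and 312 DEGs, the fewest of the 10, at 6 to 51 counts a library.

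In adipose tissue the medians were smaller. Actb gave −1.05 with 11974 of 15838 genes downregulated and 381 upregulated. Ywhaz, Hprt and Rplp0 gave −0.59, −0.52 and −0.51, and Gapdh and Gusb −0.40 and −0.37. Sdha was the exception in direction, at 0.31 with 3653 upregulated and 869 downregulated. Ppia (−0.14) and Tbp (−0.18) were nearest to 0. B2m gave −0.23 and the fewest DEGs, 672 upregulated and 1445 downregulated, with its control replicate 2 in the scale. Without that library, an alternative chosen after seeing the data, it gave −0.49, with 815 upregulated and 5677 downregulated. The geometric mean of all 10 genes gave −0.02 in the pancreas, with 28.1% of all tested genes called, and −0.37 in adipose tissue, with 34.3%. With TMM, 9 of the 10 had a log2 fold change above 0 in adipose tissue and 4 in the pancreas.

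**Figure D4:**
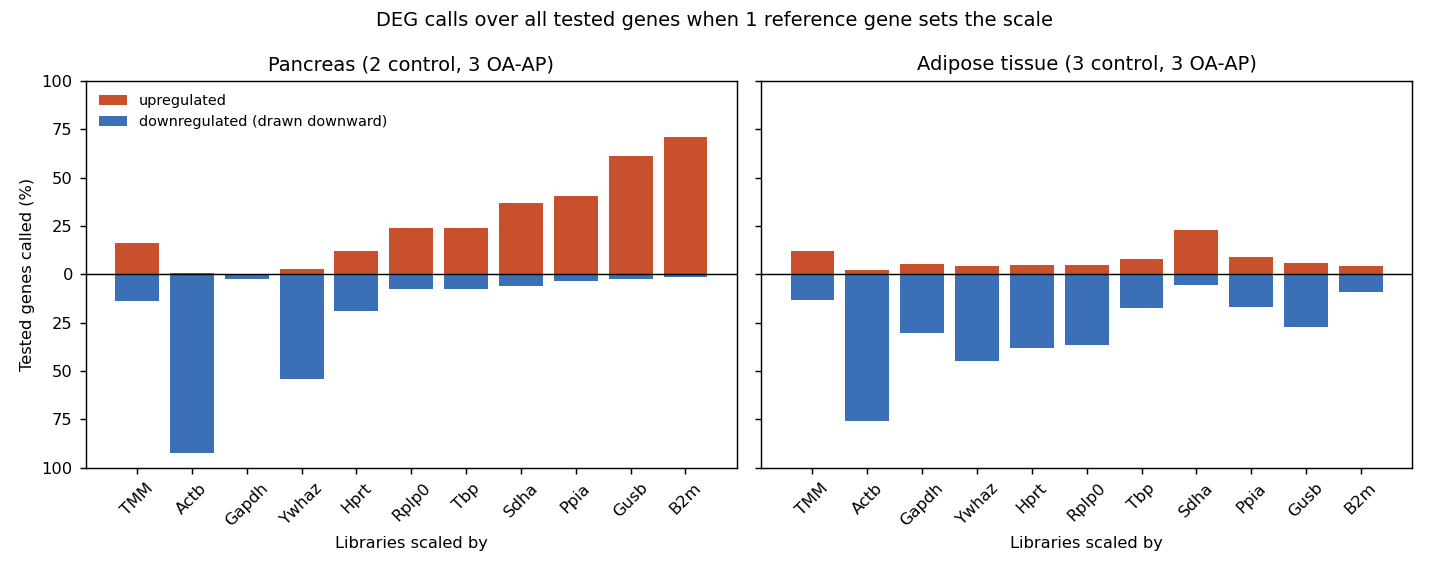
Share of all tested genes called upregulated (drawn upward) and downregulated (drawn downward), in percent, when the libraries were scaled by TMM or by 1 reference gene, for pancreas and adipose tissue. With TMM the pancreas bars are 16.2% up and 13.5% down. Scaled by Actb nearly all of the calls point down in both tissues, and scaled by B2m or Gusb those in the pancreas point up.

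The ratio of 2 genes within a library depends on no scaling. Of the 45 pairs of the 10 genes, 33 changed by at least 1.5-fold between the group means in the pancreas and 25 by at least 2-fold, against 11 and 1 in adipose tissue. In the pancreas the log2 ratio of Actb to B2m went from −0.21 ± 0.27 (SD, n = 2) to 3.79 ± 0.53 (SD, n = 3), the largest change of the 45 at 4.00. The log2 ratio of Actb to Hprt was higher by 2.41 in OA-AP than in control pancreas, and that of Hprt to B2m by 1.59. In adipose tissue the largest change was in Actb to Sdha, 1.34, from 1.24 ± 0.26 to 2.59 ± 0.21 (SD, n = 3 each).

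The pairs that moved least in the pancreas were Gapdh with Ywhaz (−0.04), at the few counts of Gapdh, Tbp with Rplp0 (−0.06) and Tbp with Sdha (0.20). In adipose tissue they were B2m with Tbp (0.00), where B2m's own controls spread by 0.57 (SD) in that ratio, and Hprt with Rplp0 (−0.01). Without adipose control replicate 2 the change of B2m to Tbp was 0.33. A mean ratio can be flat between groups while its libraries scatter, so the geNorm stability value M was also taken, the mean SD of a gene's log2 ratio to each of the other 9 over all libraries of a tissue. In the pancreas M was lowest for Rplp0 (0.63), Sdha (0.64), Tbp (0.66) and Hprt (0.66) and highest for Actb (1.57), Gapdh (1.09) and B2m (0.99). In adipose tissue it was lowest for Gapdh (0.26), Tbp (0.27), Ywhaz (0.27) and Ppia (0.27) and highest for Sdha (0.49), Actb (0.47) and B2m (0.43). Without adipose control replicate 2 the M of B2m was 0.23, at place 2 of the 10, while Sdha (0.52) and Actb (0.44) kept the last places.

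Dropping the gene with the highest M step by step left Tbp and Sdha as the last pair in the pancreas (M of 0.19) and Ywhaz and Rplp0 in adipose tissue (0.094). M measures whether genes move alike and not whether they are level, and Ywhaz and Rplp0 had increases of 0.58 and 0.51 there, both with an adjusted p-value under 0.05. In the pancreas the log2 fold change of Sdha was −0.51 (adjusted p = 0.0136), without overlap of the groups, and that of Tbp was −0.30. Actb was last in the pancreas with any single library left out. Its M there ran from 1.42 to 1.71, while in adipose tissue Gapdh ran from place 1 to 3 and Tbp from 1 to 6, so the leading places did not stand apart from each other.

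**Figure D5:**
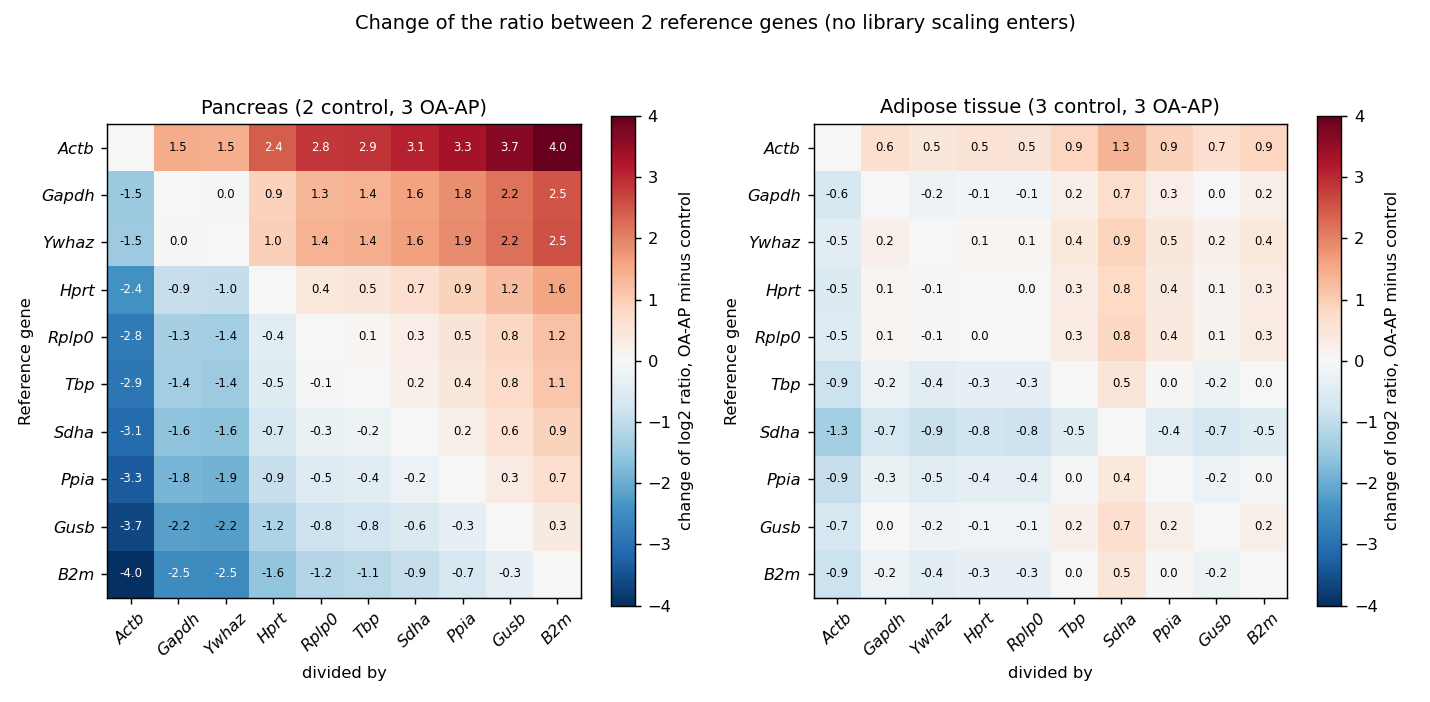
Change of the log2 ratio between each pair of reference genes, OA-AP minus control, with the row gene divided by the column gene, for pancreas on the left and adipose tissue on the right. Red cells are ratios higher in OA-AP and blue cells ratios lower in OA-AP, and the Actb row of the pancreas reaches 4.00 against B2m while the largest adipose cell is 1.34 for Actb against Sdha.

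The genes that work with a reference gene were counted from lists, which were written with earlier results of these data known and include the reference gene itself. Their counts stand against 16.2% of all tested genes upregulated and 13.5% downregulated in the pancreas, and 12.1% and 13% in adipose tissue. With 21.4%, 23.1% and 33.3% of their genes called in the pancreas, glycolysis, TFIID and the cyclophilins lay near the 29.8% of all tested genes. In the pancreas 19 of 35 tested actin cytoskeleton genes were upregulated and 1 was downregulated, with a median log2 fold change of 0.85 against 0.04 over all tested genes. Actg1 rose from 34.4 ± 0.58 to 315 ± 115 CPM (SD, n = 2 and 3, log2 fold change 3.20, adjusted p = 0.000585) and Srf, a transcription factor of actin genes, by 1.54 (adjusted p = 0.000409). In adipose tissue 13 of 36 were upregulated and 1 was downregulated, with Actn1 (alpha-actinin) at 1.38, Tpm4 (tropomyosin) at 1.39 and Arpc1b, a subunit of the Arp2/3 complex, at 0.94 ahead by p-value. Of the 7 14-3-3 genes 5 were upregulated in the pancreas, among them Ywhah (2.23), Ywhab (1.05) and Sfn (2.95), and 0 in adipose tissue with edgeR, where 4 had an unadjusted p under 0.05, DESeq2 called 1 and Ywhaz had the largest change. The median of the 14-3-3 genes was 1.16 in the pancreas and 0.14 in adipose tissue, and that of the actin cytoskeleton genes in adipose tissue was 0.44, against −0.01 over all tested adipose genes.

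Of 13 genes of MHC class I presentation 5 were downregulated in the pancreas and 0 upregulated. Besides B2m these included the immunoproteasome subunit Psmb10, which fell from 100.2 ± 16.6 to 21.9 ± 2.49 CPM (SD, n = 2 and 3, log2 fold change −2.20, adjusted p = 0.000114), and tapasin, Tapbp (−0.75). In adipose tissue edgeR called 0 of the 13, with 3 at an unadjusted p under 0.05, and DESeq2 called 1. Of 16 lysosomal hydrolase genes 7 were downregulated in the pancreas, with Man2b1 (alpha-mannosidase) at −1.16 and Glb1 (beta-galactosidase) at −1.33 beside Gusb, and 1, Idua, in adipose tissue (−0.74). Of the 12 cyclophilins 3 were downregulated and 1 upregulated in the pancreas, with Ppib at −1.27 and Ppif at −0.70 beside Ppia, and 2, Ppil1 and Ppid, were upregulated in adipose tissue. The list medians in pancreas and adipose tissue were −0.40 and −0.10 for MHC class I presentation, −0.80 and 0.01 for the lysosomal hydrolases and −0.09 and 0.26 for the cyclophilins, against the same 0.04 and −0.01 over all tested genes.

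Of 8 succinate dehydrogenase subunits and assembly factors 4 were downregulated in the pancreas, with Sdhb going from 58.6 ± 3.14 to 29.4 ± 1.25 CPM (SD, n = 2 and 3) and Sdhc at −0.76, while Sdha itself fell short of the fold. In adipose tissue 0 were called by edgeR or DESeq2, with 3 at an unadjusted p under 0.05 in edgeR. Hprt stood beside purine genes that did change. Pnp, purine nucleoside phosphorylase, rose by 3.18 in the pancreas (adjusted p = 0.000135) and by 1.35 in adipose tissue (adjusted p = 0.000402), where 5 of the 7 purine salvage genes were upregulated, against 2 in the pancreas. Of the 14 glycolysis genes 1 was upregulated and 2 were downregulated in the pancreas, with Ldha at 1.40, Pfkm at −2.28 and Aldoa at −0.63, and 3 and 1 in adipose tissue, with Ldha at 0.96, Pgk1 at 0.70 and Pfkm at −1.36. Of the 5 ribosomal stalk genes 0 were called in the pancreas by edgeR or DESeq2, with 3 at an unadjusted p under 0.05 in edgeR, and 1, Mrto4, in adipose tissue (1.22). Of 13 TFIID genes, the complex of Tbp, 2 were upregulated and 1 was downregulated in the pancreas, and 2 were upregulated in adipose tissue. The list medians, in the same order of tissues and against the same background, were −0.77 and −0.13 for succinate dehydrogenase, 0.55 and 1.35 for purine salvage, 0.05 and 0.38 for glycolysis, −0.40 and 0.51 for the ribosomal stalk and 0.23 and 0.16 for TFIID.

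Other genes in use as references were counted the same way, from a list of 53 of which 52 were listed in each table. In the pancreas 7 of 51 tested were upregulated and 7 were downregulated, 27.5% in all against 29.8% of all tested genes, and in adipose tissue 8 of 52 were upregulated and 1 was downregulated, 17.3% against 25.1%. Their medians were −0.13 and 0.26. The largest changes in the pancreas were in Reep5 (−2.29) and Pmm1 (1.77), and in adipose tissue in Tubb5 (1.27), Tceal1 (−1.03) and Ldha (0.96). The smallest in the pancreas were Tbcb, Rab7 and Pgk1, at 0.00, 0.01 and 0.01 on the log2 scale, with Rab7 at 54.7 ± 0.34 and 55.0 ± 2.42 CPM (SD, n = 2 and 3). In adipose tissue they were Eef2 (−0.01), Ddx5 (−0.01) and Ap3d1 (0.01). Pgk1, among the least changed of the list in the pancreas, was a DEG in adipose tissue.

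Of the 1202 genes whose mean log2 CPM reached 5 in both tissues, the 5 whose SD of log2 CPM over all libraries was smallest, taking the larger SD of the 2 tissues, were Mef2d (0.063), 2610507B11Rik (0.064), Rbm39 (0.067), Arhgef1 (0.073) and Rab14 (0.073). They were chosen for this value on these libraries, so it is a description and not a test of them. On the same measure Sdha came at place 374, Rplp0 at 460, Ppia at 764, Ywhaz at 983, B2m at 1058 and Actb at 1163, and the other 4 were below the level that the list required in the pancreas. Over the 11 libraries, which share tissue and condition, log2 CPM of Actb was most like that of Timm23, Nckap1 and Ppp2ca (Pearson r of 0.995, 0.991 and 0.99), that of Hprt like Icam1, Epas1 and Slc16a1 (0.993 each), and that of B2m like St13, Nlrc5 and Tapbp (0.995, 0.994 and 0.992).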

How the data were processed

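RNA from bulk pancreas and epididymal adipose tissue was sequenced as read pairs, and the authors deposited 1 table of raw counts per gene for each tissue. The pancreas table also holds a gene length. The submitters' processing notes name Trim Galore 0.6.6, fastp 0.20.1 and featureCounts 2.0.1 with the GRCm38 build, and the methods name STAR. The strand setting, the treatment of reads that fit several genes and the annotation release are not given in the sources used here. Totals were 14188832 to 17238919 counts per pancreas library and 20825177 to 27928097 per adipose library, and precision is lowest for Gapdh in the pancreas, at 6 to 51 counts.

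Counts were tested with edgeR 4.0.16 (R 4.3.3, robust quasi-likelihood test, TMM, filterByExpr) in each tissue apart, and in a fit of all 11 libraries for the tissue by condition term, over 12884, 15839 and 17046 genes. DEGs had a Benjamini-Hochberg adjusted p below 0.05 and changed by 1.5-fold or more. The 95% intervals used the fit's t quantile, with SE taken as the absolute log2 fold change over the square root of F. The labels do not say that samples came from separate animals, so p-values measure the spread between these samples, which may be technical. Log2 ratios of 2 genes used counts plus 0.5. Pseudogenes were matched with blastn 2.17.0 to GENCODE M21 transcripts. On simulated data with 100 genes changed by 1 and 100 by 2 on the log2 scale, the tests found 47 and 100 in the pancreas (12542 genes), 79 and 100 in adipose tissue (15628) and 18 and 80 for the tissue by condition term (16687), with 5, 10 and 5 false calls. The simulation changed only well-counted genes, gave all genes the same spread and had no shift in the acinar share built in. These rates thus do not carry over to sparsely counted genes such as Gapdh in the pancreas.

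The 10 genes and all lists were chosen with earlier results of these data known. The text names the 10, the 3 least and 3 most changed of the other reference genes (1 is not reported here), up to 3 called genes with the smallest p per list, the genes most like Actb, Hprt and B2m, and the 5 steadiest genes. Pseudogenes, overlapping genes and marker genes at 0 are named beyond this rule and were chosen after their values were seen. Alternatives were other scalings, DESeq2 1.42.0, other filters, no fold minimum, the replicate number as a block and each library left out.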

Additional observations from a re-analysis of the deposited data

Results flagged for a closer look

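For 4 of the 10 genes the OA-AP change differed between pancreas and adipose tissue by the tissue by condition term, where 20.6% of all 17046 tested genes did. The pancreas minus adipose difference on the log2 scale was 1.59 for Actb, −1.52 for B2m, −0.91 for Ppia and −1.43 for Gusb. Actb was upregulated in both tissues and more so in the pancreas, while B2m, Ppia and Gusb were downregulated in the pancreas and did not pass the test in adipose tissue. With library totals in place of TMM, B2m, Ppia and Gusb lost the call of the tissue by condition term. With the replicate number as a block, B2m and Ppia lost it too.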

How the results depend on the processing

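With library totals alone there were 6349 pancreas DEGs, and the log2 fold changes of Tbp, Sdha and Rplp0 in the pancreas turned to 0.41, 0.20 and 0.46 and those of B2m and Ppia in adipose tissue to −0.064 and −0.027. The upper quartile turned adipose B2m to −0.029. The geometric mean of the 10 genes turned adipose B2m, Tbp and Ppia to −0.24, −0.19 and −0.23. Of the 10, 2 were called, where 34.3% of all tested genes were, and 7 intervals lay inside 1.5-fold. The geometric mean of 9 genes without Gapdh, chosen after seeing the data, turned them to −0.24, −0.19 and −0.22. It left 2 of the 10 called, beside 5360 DEGs of 15839 tested genes, and 7 intervals inside. In adipose tissue 2 were also called with DESeq2's size factors, where 25.1% of all tested genes were. DESeq2's own test called 2 as well, beside 4086 DEGs. With pseudogene counts added (chosen after seeing the data) 2 were called, and the share of all tested genes is not given. Without a fold minimum 5 were called, against 36.8% of all tested genes. With at least 10 counts in every sample, 2 pancreas intervals lay inside 1.5-fold. The shares of all tested genes with such intervals were not computed for these settings. The share of DEGs that were upregulated was 42.6% with the upper quartile and 51.1% with the geometric mean of the 10 in the pancreas, against 54.5% with TMM, and 32.1% with library totals, 35.4% with the upper quartile and 17.9% with the geometric mean in adipose tissue, against 48.1%. The cause of these moves was not tested.

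Scaled by a single gene, the median change over the pancreas genes (log2) was −2.51 for Actb, −0.93 for Gapdh, −0.13 for Hprt, 1.45 for B2m, 0.36 for Tbp, 0.78 for Ppia, −1.06 for Ywhaz, 1.12 for Gusb, 0.55 for Sdha and 0.29 for Rplp0, against 0.04 with TMM. In adipose tissue it was −1.05 for Actb, −0.40 for Gapdh, −0.52 for Hprt, −0.18 for Tbp, −0.14 for Ppia, −0.59 for Ywhaz, −0.37 for Gusb, 0.31 for Sdha and −0.51 for Rplp0, against −0.01, and −0.49 for B2m without control replicate 2 (chosen after seeing the data).

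With 1 library left out, 3 to 5 of the 10 genes were called in the pancreas, 1 to 3 in adipose tissue (3 without control replicate 2) and 2 to 6 by the tissue by condition term (2 without pancreas control replicate 1, 6 without pancreas OA-AP replicate 2). Pancreas DEGs ran from 1495 without control replicate 2 to 4265, and adipose DEGs from 2865 to 4476. Intervals inside 1.5-fold numbered 0 to 1 in the pancreas and 2 to 3 in adipose tissue, and pairs past 1.5-fold 32 to 37 and 9 to 13. Adipose B2m ran from −0.06, without control replicate 1 or control replicate 3, to 0.49 without control replicate 2. A lone control was assumed to vary like the other group. In the pancreas, the fits with a lone control gave both the fewest calls among the 10 genes and the fewest DEGs. The fall in calls among the 10 thus came with a loss of calls over all tested genes. For the tissue by condition term with 1 library left out, the share of all tested genes called is not given.

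The replicate number as a block left 5 genes called in the pancreas and 1 in adipose tissue, where 31.8% and 22% of all tested genes were called. With same-numbered samples of the 2 tissues in a group fitted as 1 animal, 2 were called by the tissue by condition term. B2m and Ppia lost the call there. Same-numbered control and OA-AP samples deviated with correlations of −0.041 to −0.0005 in the pancreas and −0.175 to 0.054 in adipose tissue, and same-numbered samples of the 2 tissues with −0.063 to 0.123, so the samples were not taken as paired.

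Gapdh in the pancreas rests on 6 to 51 counts a library and Tbp on 77 to 122, and with 2 controls there 1 of 10 intervals lay inside 1.5-fold.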
